A study of Mus musculus with 14 samples.

Results

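The interleukin-1 (IL-1) family genes Il1a, Il1b, Il1rn, Il18, Il33, Il1r1, Il1rap and Il1rl1 were followed in mouse hepatic stellate cells (HSCs) during their first days in culture. A gene was read from the rows of the expression table whose only symbol was that gene, and the row of highest mean over the 14 arrays was kept. By this rule 6 of the 8 genes were found, each with 1 probe set, among 19938 genes with a symbol of their own. Il1r1 and Il1rl1, the receptors that bind IL-1 and IL-33, matched no row and were not analysed here. All samples were HSCs from healthy BalbC mice (Balb/cByJ in the methods), purified on a density gradient and grown on plastic in DMEM with fetal bovine serum, and loose cells were washed off before the clock was started. Control cells were harvested 4 h later in 3 cultures (Ctrl4h), 16 h later in 2 (Ctrl16h) and 64 h later in 3 (Ctrl64h). Other cultures received 2.5 mM valproic acid (VPA), an inhibitor of histone deacetylases, from the time of washing, and 3 of them were harvested at 4 h (VPA4h) and 3 at 64 h (VPA64h). According to the methods the samples of a group were independent biological replicates. For the control time course a figure caption of the paper names separate isolations, 2 or 3 in each group. The culture of HSCs is a model of their activation into myofibroblasts, and the comparisons asked what changes early in that process and what VPA alters.

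IL-1α, IL-1β, IL-18 and IL-33 are cytokines without a classical signal peptide that report infection or tissue damage. IL-33 is held in the nucleus of stromal and endothelial cells and is released as an alarmin when they are injured, IL-1β and IL-18 need cleavage by caspase-1, and the product of Il1rn occupies the IL-1 receptor without signalling. Il1rap encodes the accessory chain that IL-1 and IL-33 receptors share, and the receptor complex signals through MyD88 and IRAK kinases to NF-κB. In the liver Kupffer cells are a known source of IL-1, and IL-33 is known as a profibrotic signal made in part by HSCs.

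The promoters of the genes that passed the limits given below for a change in at least 1 comparison are shown. Il1a and Il1b did so only between VPA4h and VPA64h, and their levels correlated over the 14 arrays (Pearson r = 0.944). Il33 and Il1rap changed in opposite directions. Each window runs from 250 bases before to 50 bases after a RefSeq start site on GRCm38.p6, is written 5′ to 3′ on the strand of the gene, and has the motif matches in capitals. The windows of Il33 lie at chr19:29924863-29925162 and chr19:29945540-29945839 on the plus strand, and the array does not tell which of these start sites was used. Those of Il1a (chr2:129309923-129310222) and Il1b (chr2:129371090-129371389) lie on the minus strand, and that of Il1rap (chr16:26581455-26581754) on the plus strand.
Il33, start site 1: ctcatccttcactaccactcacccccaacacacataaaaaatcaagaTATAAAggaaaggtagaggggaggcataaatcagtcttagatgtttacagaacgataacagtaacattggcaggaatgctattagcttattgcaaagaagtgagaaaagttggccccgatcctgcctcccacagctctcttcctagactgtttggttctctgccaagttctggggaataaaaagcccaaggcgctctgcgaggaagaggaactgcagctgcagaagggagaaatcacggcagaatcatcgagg
Il33, start site 2: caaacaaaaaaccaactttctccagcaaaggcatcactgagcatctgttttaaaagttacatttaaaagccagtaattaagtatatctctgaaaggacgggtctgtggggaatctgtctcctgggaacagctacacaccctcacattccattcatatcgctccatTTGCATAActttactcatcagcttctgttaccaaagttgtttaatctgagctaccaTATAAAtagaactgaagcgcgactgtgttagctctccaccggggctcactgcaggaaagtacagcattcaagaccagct
Il1a: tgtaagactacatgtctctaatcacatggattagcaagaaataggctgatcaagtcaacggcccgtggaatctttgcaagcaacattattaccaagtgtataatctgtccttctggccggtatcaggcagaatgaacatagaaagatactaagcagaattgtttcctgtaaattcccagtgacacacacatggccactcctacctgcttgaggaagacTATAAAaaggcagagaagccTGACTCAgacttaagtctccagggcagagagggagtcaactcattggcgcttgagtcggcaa
Il1b: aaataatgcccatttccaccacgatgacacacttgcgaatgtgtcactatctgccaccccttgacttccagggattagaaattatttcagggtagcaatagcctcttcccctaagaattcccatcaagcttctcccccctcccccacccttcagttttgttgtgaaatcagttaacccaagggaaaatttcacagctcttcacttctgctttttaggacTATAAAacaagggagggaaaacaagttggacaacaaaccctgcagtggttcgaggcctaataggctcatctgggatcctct
Il1rap: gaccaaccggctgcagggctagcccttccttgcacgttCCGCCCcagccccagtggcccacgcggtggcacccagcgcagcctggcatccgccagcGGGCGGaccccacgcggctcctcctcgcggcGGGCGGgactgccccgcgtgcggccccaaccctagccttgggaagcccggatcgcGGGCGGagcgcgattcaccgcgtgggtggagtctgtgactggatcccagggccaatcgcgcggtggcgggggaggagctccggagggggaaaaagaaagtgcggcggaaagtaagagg

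Both strands of these windows were searched for the NF-κB consensus, AP-1 (TGANTCA), CRE (TGACGTCA), C/EBP (TTGCNNAA), the TATA box (TATAAA) and the GC box (GGGCGG). The TATA box began at -32 from the start of Il1a, at -31 from that of Il1b, at -29 from the second start of Il33 and at -203 from the first. Of 32851 promoter windows of this length 13.6% held the letters of a TATA box. Il1a also had an AP-1 match at -12, as 7.81% of all windows had somewhere, and the second Il33 window a C/EBP match at -85, against 10.8% of windows. Of the windows not shown, that of Il1rn start site 1 had an AP-1 match at -141. The letters of a TATA box lay on the opposite strand at 15 for Il1rn start site 3 and at -175 for Il18. The Il1rap window held 4 GC boxes, at -212, -154, -123 and -68, and 35.7% of windows held at least 1. It was also the richest in G and C of the windows shown, at 72%, whereas those of Il1a and Il1b had 44.7% and 45.7% and those of Il33 46.3% and 42.3%. No window of the 6 genes, those of Il1rn and Il18 included, held the letters of the NF-κB consensus (5.8% of windows) or of a CRE (1.79%). A match of letters is a description of the sequence and shows no binding.

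The values are log2 expression levels from the RMA method, which gives all arrays the same distribution, so a change is measured against the rest of the array. Arrays of one group correlated at r = 0.993 to 0.995 across probe sets, and no 2 arrays were identical. A change is written as a difference of log2 group means with its standard error (SE), and the words rose and fell are used where limma gave an adjusted p under 0.05 and the fold change was at least 2. The 18 HSC markers examined all lay above the median of the tested probe sets on some array, with a mean of 9.96 to 10.75 per array. Markers of other liver cells had lower means. Of 20 markers of Kupffer cells and macrophages 11 were below that median on every array, among them Adgre1, Clec4f, Cd5l, Timd4, Vsig4 and Marco. The rest, among them Csf1r, Cd68, Lyz2, Ctss and Cd14, were above it on some array. The mean of these 20 markers ran from 5.59 to 6.18 over the arrays, and it was highest on the replicate 1 array in each of the 4 groups of 3. Of 20 sinusoidal endothelial markers only 6 were below the median on every array. The mean of those 20 ran from 6.69 to 7.21, and it too was highest on the replicate 1 arrays of these groups. Il33 and Il1rap were above the median of tested probe sets on 14 of 14 arrays, Il1rn on 7 and Il1b on 2, while Il1a and Il18 were below it on every array. In RNA from a whole culture, fewer cells of a type and less RNA per cell cannot be told apart.

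Control culture lowered Il33 and raised Il1rap. Between Ctrl4h and Ctrl64h 1 of the 6 genes rose and 1 fell, where 6.68% of all 23410 tested probe sets rose and 3.71% fell. Between Ctrl4h and Ctrl16h 1 gene fell and none rose, against 1.21% and 0.705% of probe sets, and between Ctrl16h and Ctrl64h 1 rose and 1 fell, against 4.52% and 2.08%. The median change of the 6 genes was -0.59 in the first interval, -0.04 in the second and -0.68 over both, where the medians of all tested probe sets were -0.01, -0.07 and -0.09. The cultures of 4 h, 16 h and 64 h enter more than one of these comparisons, so their values are not independent of each other.

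Il33 encodes the nuclear alarmin IL-33. Its log2 level was 11.73, 11.48 and 11.21 in the 3 Ctrl4h cultures, 8.96 and 8.93 in Ctrl16h, and 7.92, 7.73 and 7.91 in Ctrl64h. The 3 time points did not overlap, and the level went down at each step. Il33 fell by 2.53 (SE 0.15, limma adjusted p = 3.5e-08) between 4 h and 16 h, a 5.78-fold decrease, and by a further 1.09 (SE 0.15, adjusted p = 2.25e-05) until 64 h. Over the whole period it fell by 3.62 (SE 0.13, adjusted p = 1.12e-11), or 12.3-fold. Most of the decrease on the log2 scale was thus over by 16 h. The second step was close to the 2-fold limit and was -0.99 when the arrays were centred on housekeeping genes. Of 20 markers of sinusoidal endothelial cells, another type that can make IL-33, 1 rose and 2 fell between Ctrl4h and Ctrl64h with a median change of -0.26. At a limma adjusted p under 0.05 and any fold change, 8 of them were lower and 3 higher. The share of all tested probe sets at that limit was not counted, and their median change was -0.09. The part of endothelial cells in the change of Il33 was not tested. Without the replicate 1 arrays the decrease of Il33 was -3.53 (adjusted p = 5.8e-08).

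Il1rap, the shared signalling chain of the IL-1 and IL-33 receptors, took the opposite course. Its levels were 7.18, 6.89 and 7.19 in Ctrl4h, 7.85 and 7.80 in Ctrl16h, and 9.46, 9.21 and 9.38 in Ctrl64h. Again no time point overlapped another, but here the later interval brought the larger step. The increase between 4 h and 16 h was 0.74 (SE 0.10, adjusted p = 9.98e-05), which is 1.67-fold and under the fold limit. From 16 h to 64 h Il1rap rose by 1.52 (SE 0.10, adjusted p = 2.32e-08), and over the whole period by 2.26 (SE 0.09, adjusted p = 3.45e-11), or 4.80-fold. The plot of levels by culture shows how close its replicates were in every group.

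**Figure D1:**
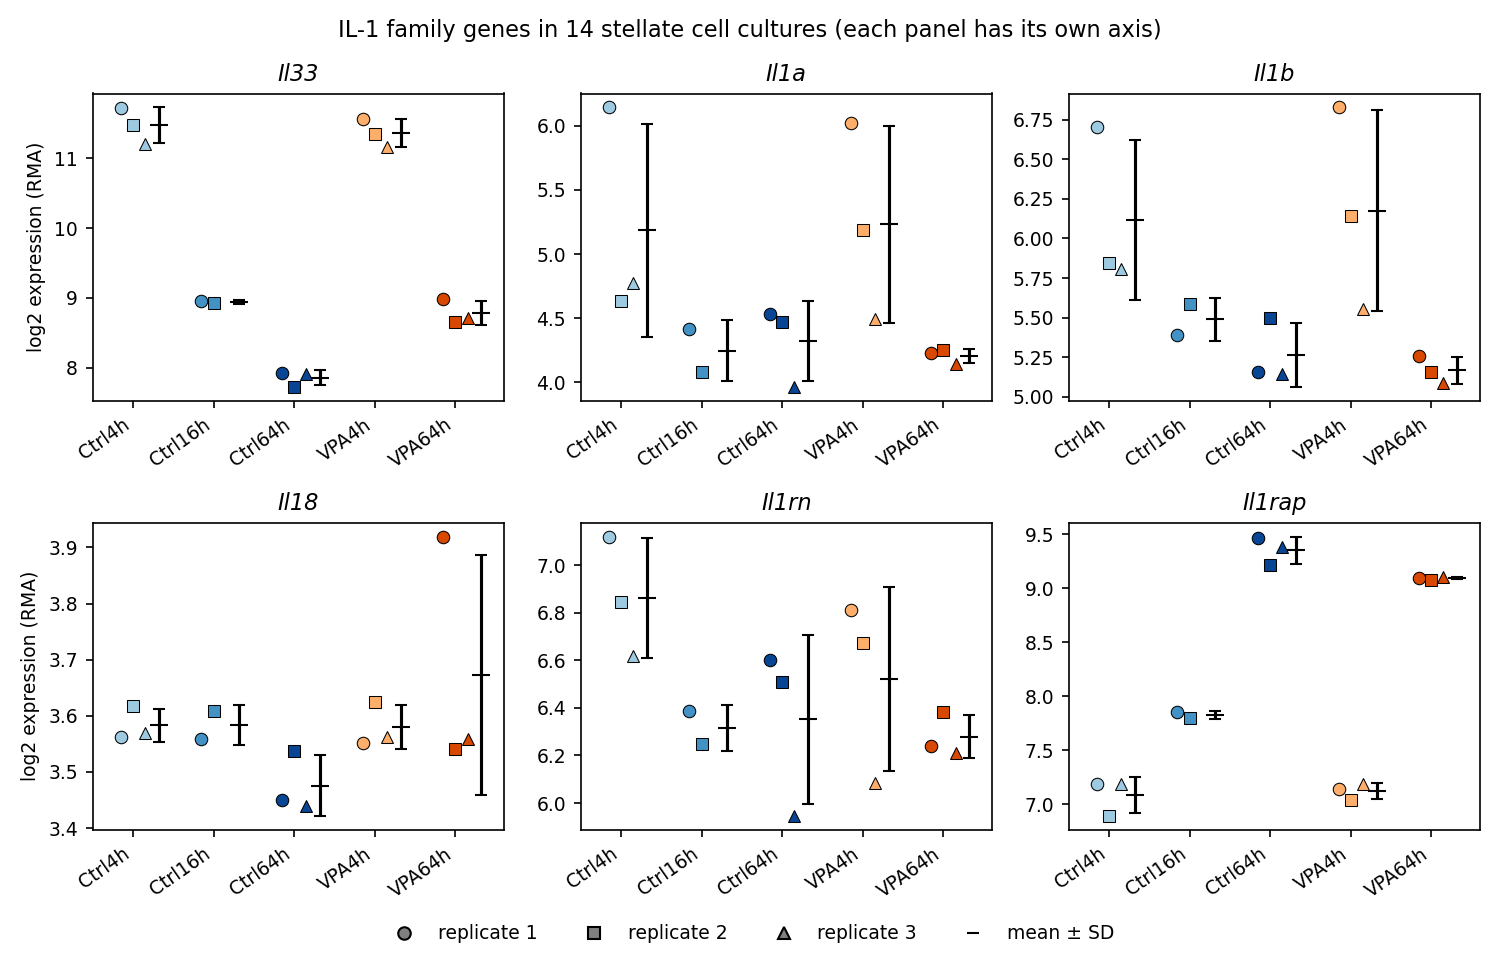
The log2 expression (RMA) of 6 IL-1 family genes in each culture, with 1 point per array, the marker shape giving the replicate number and the bar the mean ± SD of the group; each panel has its own axis. Il33 goes down from a mean of 11.47 in Ctrl4h to 7.85 in Ctrl64h and Il1rap goes up from 7.09 to 9.35, while Il1a and Il1b are spread widely at 4 h.

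Il1a and Il1b, which encode the inflammatory cytokines IL-1α and IL-1β, were higher in some of the 4 h cultures than later. Il1a was at 6.14, 4.64 and 4.78 in Ctrl4h, 4.41 and 4.08 in Ctrl16h, and 4.53, 4.47 and 3.97 in Ctrl64h. Il1b was at 6.70, 5.84 and 5.81 in Ctrl4h, 5.39 and 5.59 in Ctrl16h, and 5.16, 5.50 and 5.14 in Ctrl64h. In both genes the replicate 1 culture of Ctrl4h stood above the other two, and all 3 Ctrl4h cultures were above all later control cultures. Between Ctrl4h and Ctrl64h the difference was -0.86 for Il1a (SE 0.35, adjusted p = 0.0482) and -0.85 for Il1b (SE 0.26, adjusted p = 0.0105), both under 2-fold and so not called. The earlier interval gave -0.94 for Il1a (SE 0.40, adjusted p = 0.12) and -0.63 for Il1b (SE 0.29, adjusted p = 0.156), and the later one 0.08 and -0.22 with adjusted p of 0.896 and 0.56.

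A single culture carried much of that difference. Without Ctrl4h replicate 1 the change between Ctrl4h and Ctrl64h was -0.38 (adjusted p = 0.285) for Il1a and -0.56 (adjusted p = 0.0632) for Il1b, and the change between Ctrl4h and Ctrl16h was -0.46 and -0.34. Without Ctrl4h replicate 3 the change between 4 h and 64 h passed the fold limit for both, with -1.07 for Il1a. Without Ctrl4h replicate 2 it did so for Il1a, at -1.14. With all replicate 1 arrays left out, a choice made after the data were seen, the difference between 4 h and 64 h was -0.49 (adjusted p = 0.0768) for Il1a and -0.50 (adjusted p = 0.036) for Il1b.

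The macrophage markers moved with these replicates. Their mean was 6.18, 5.91 and 5.81 in Ctrl4h and 6.12, 5.88 and 5.68 in VPA4h, so that the culture with the most marker signal at 4 h was also the one with the highest Il1a and Il1b. At 64 h the replicate 1 cultures again had the highest marker means, at 6.15 in Ctrl64h and 5.93 in VPA64h. They had the highest Il1a in Ctrl64h but not in VPA64h, and the highest Il1b in VPA64h but not in Ctrl64h. Of the 20 markers none rose or fell between Ctrl4h and Ctrl64h by limma, with 11 at an unadjusted p under 0.05. Their median change was -0.14, beside -0.09 for all tested probe sets. At a limma adjusted p under 0.05 and any fold change, 7 of the markers were lower and 1 higher. The share of all tested probe sets at that limit was not counted. In Ctrl16h the marker mean was 5.67 on each array, and 2 markers rose between Ctrl16h and Ctrl64h, where 4.52% of probe sets rose. The mean of 20 sinusoidal endothelial markers was also highest in replicate 1, at 7.17 in Ctrl4h, 7.21 in VPA4h, 7.04 in Ctrl64h and 6.72 in VPA64h. Il33 and Il1rn too were highest in replicate 1 at 4 h, with and without VPA. The part of macrophages or of endothelial cells in the levels of Il1a and Il1b was not tested. Of 14 markers of neutrophils and monocytes, 13 lay below the median of tested probe sets on every array, and the mean of the 14 stayed between 4.95 and 5.14.

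**Figure D2:**
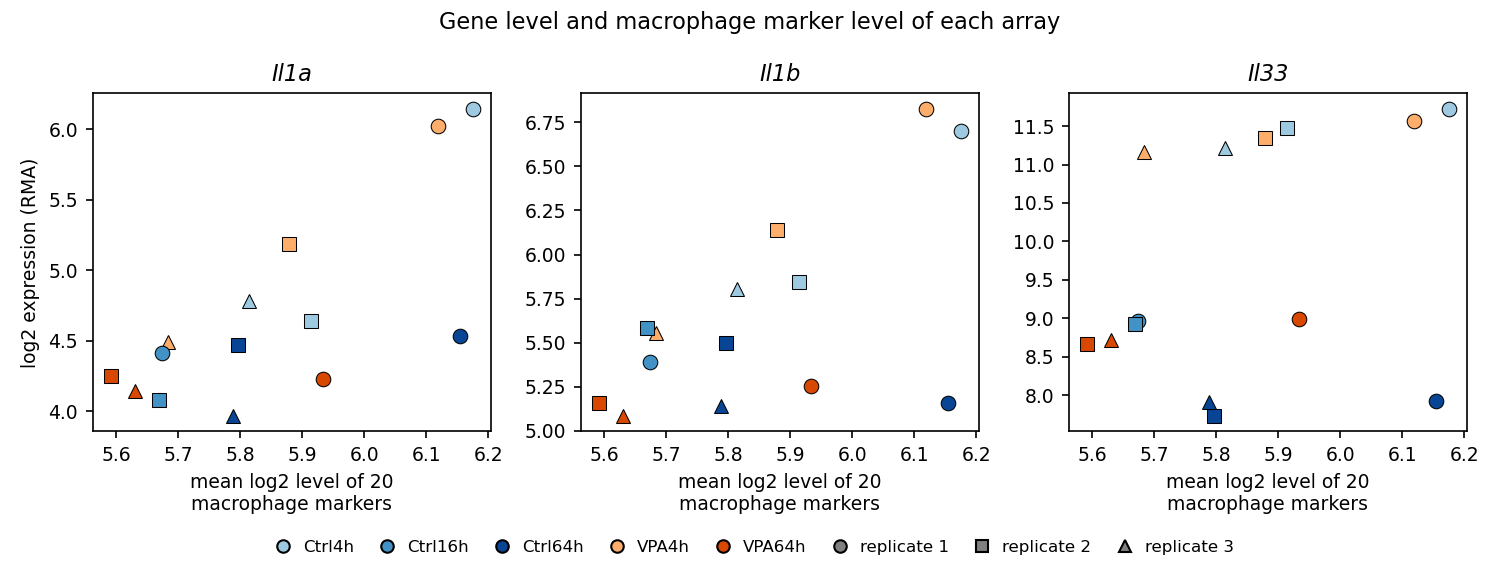
The log2 level of Il1a, Il1b and Il33 in each of the 14 cultures against the mean log2 level of 20 macrophage markers in the same culture, with colours for the groups and marker shapes for the replicate number. The replicate 1 cultures of Ctrl4h and VPA4h, at marker means of 6.18 and 6.12, have the highest Il1a and Il1b. Il33 is also highest in replicate 1 of each group, and it differs mainly between groups.

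Il1rn encodes the IL-1 receptor antagonist. It was at 7.12, 6.84 and 6.62 in Ctrl4h, 6.38 and 6.25 in Ctrl16h, and 6.60, 6.51 and 5.95 in Ctrl64h. The Ctrl4h cultures were above all later control cultures, though Ctrl64h replicate 1 came close to the lowest of them. The difference between Ctrl4h and Ctrl64h was -0.51 (SE 0.19, adjusted p = 0.0293), 1.42-fold and not called, and it was -0.38 (adjusted p = 0.123) without Ctrl4h replicate 1 and -0.52 (adjusted p = 0.0601) without Ctrl4h replicate 2. Without Ctrl64h replicate 3 it was -0.30 (adjusted p = 0.166). Il18, whose product is a caspase-1 substrate like IL-1β, was at 3.56, 3.62 and 3.57 in Ctrl4h, 3.56 and 3.61 in Ctrl16h, and 3.45, 3.54 and 3.44 in Ctrl64h. These levels lie near the bottom of the scale, and no difference of Il18 between control groups exceeded 0.11 or had an adjusted p under 0.345.

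**Figure D3:**
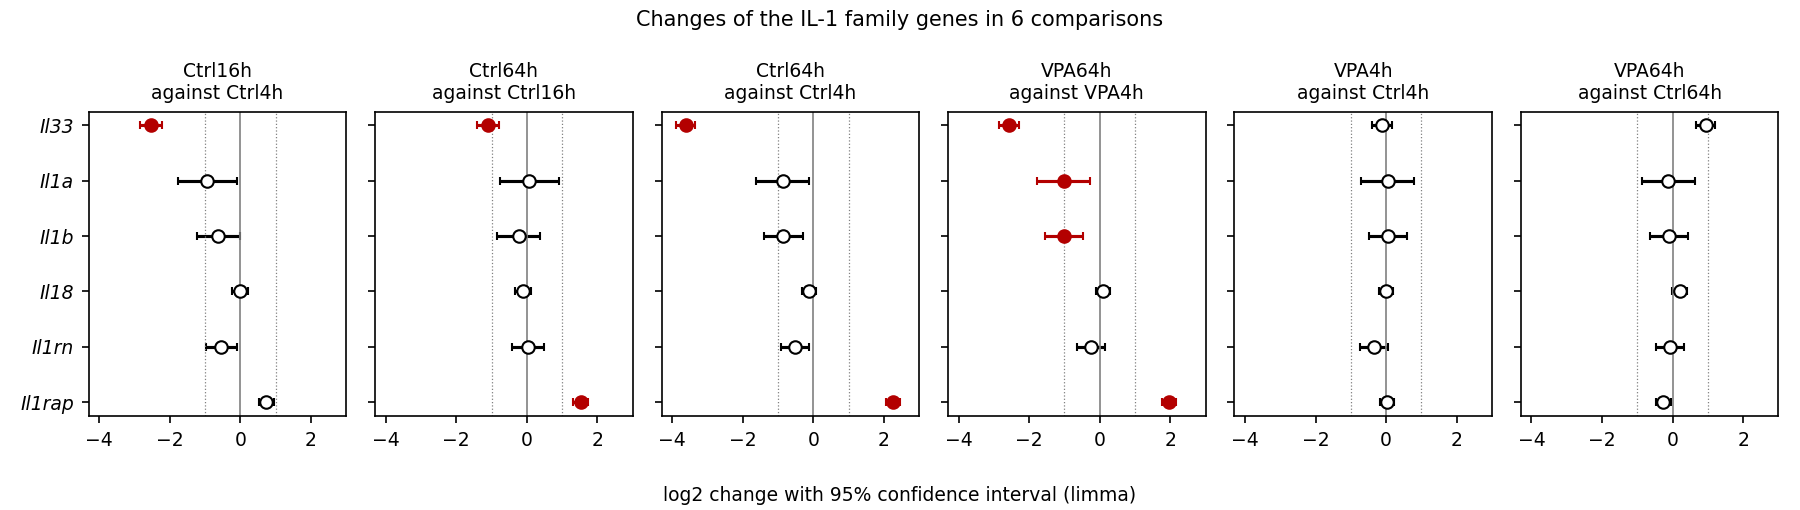
The log2 change of each of the 6 genes in 6 comparisons (horizontal axis), with its 95% confidence interval from limma; points are filled red where the gene rose or fell, and dotted lines mark 2-fold. Il33 lies at -3.62 and Il1rap at 2.26 for Ctrl64h against Ctrl4h, and neither VPA comparison has a filled point.

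None of the 6 genes rose or fell with VPA after 4 h, where 0.867% of probe sets rose and 0.555% fell. None had an unadjusted p under 0.05 in limma. The count with the one-way analysis of variance named in the methods could only be 0, since no change reached 2-fold. Il33 was at 11.57, 11.35 and 11.17 in VPA4h, within the range of Ctrl4h but for its lowest culture, and differed by -0.11 (SE 0.13, adjusted p = 0.668). Il1rap was at 7.14, 7.04 and 7.19 and differed by 0.04 (SE 0.09, adjusted p = 0.864). The 95% confidence interval of the difference ran from -0.39 to 0.17 for Il33 and from -0.16 to 0.24 for Il1rap, so that a 2-fold effect lies outside both.

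The cytokine genes gave wider intervals at 4 h. Il1a was at 6.02, 5.19 and 4.49 in VPA4h and Il1b at 6.83, 6.14 and 5.56, with replicate 1 again the highest and the groups overlapping. The VPA effect was 0.05 for Il1a (95% confidence interval -0.71 to 0.80) and 0.06 for Il1b (-0.49 to 0.60). Il1rn was at 6.81, 6.67 and 6.08 and was lower with VPA in 3 of 3 pairs of the same replicate number, by 0.34 on average (SE 0.19, adjusted p = 0.254), which did not pass the test. Without VPA4h replicate 3 the difference of Il1rn was -0.12 (adjusted p = 0.789), and without Ctrl4h replicate 1 it was -0.21 (adjusted p = 0.549). Il18 stayed at 3.55, 3.62 and 3.56.

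After 64 h the effect of VPA on Il33 was the largest among the 6 genes. VPA64h cultures had Il33 levels of 8.99, 8.66 and 8.72, all above the 7.73 to 7.92 of Ctrl64h. The difference was 0.94 (SE 0.13, adjusted p = 8.36e-05), higher in 3 of 3 pairs and 1.91-fold, which falls short of the 2-fold limit. None of the 6 genes was called in this comparison, where 1% of probe sets rose and 1.14% fell. The count with the analysis of variance of the methods could only be 0 here too, since no change reached 2-fold. In limma 2 genes, Il33 and Il1rap, had an unadjusted p under 0.05. With VPA the Il33 level at 64 h was 8.79 ± 0.17 (SD, n = 3), which overlapped that of Ctrl16h at 8.94 ± 0.02 (SD, n = 2). Of 20 sinusoidal endothelial markers 1 rose and 1 fell with VPA, with a median change of -0.26 and 13 at an unadjusted p under 0.05 in limma. At a limma adjusted p under 0.05 and any fold change, 8 of them were lower and 4 higher. The share of all tested probe sets at that limit was not counted, and their median change was 0.00. The 20 macrophage markers had a median change of -0.19 with none called and 6 at an unadjusted p under 0.05. At the limma adjusted p limit and any fold change, 4 of these 20 were lower and none higher.

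Il1rap was lower with VPA at 64 h, at 9.10, 9.08 and 9.10 against 9.46, 9.21 and 9.38. The groups did not overlap and the difference had the same sign in 3 of 3 pairs, but at -0.26 (SE 0.09) its limma adjusted p was 0.0584. With the replicate number as a block it was 0.0326. Over all alternatives but the analysis of variance the limma adjusted p ran from 0.0224 to 0.341, and it was under 0.05 in 6 of them. Il1a was at 4.23, 4.25 and 4.14 and Il1b at 5.26, 5.16 and 5.09, each overlapping its control. Their differences were -0.12 (95% confidence interval -0.87 to 0.64) and -0.10 (-0.65 to 0.45), so that for Il1a a change approaching 2-fold in the downward direction is not resolved by these arrays. Il1rn differed by -0.07 (SE 0.19, adjusted p = 0.825). Il18 was at 3.92, 3.54 and 3.56, a difference of 0.20 (SE 0.09, adjusted p = 0.152), to which VPA64h replicate 1 contributed most.

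In the presence of VPA Il33 and Il1rap changed over time in the same directions as in control culture. From VPA4h to VPA64h 1 of the 6 genes rose and 3 fell, where 5.26% of probe sets rose and 2.29% fell. Il33 fell by 2.57 (SE 0.13, adjusted p = 4.36e-10), or 5.94-fold, and Il1rap rose by 1.97 (SE 0.09, adjusted p = 2.46e-10), or 3.91-fold. Il1a fell by 1.02 (SE 0.35, adjusted p = 0.0247) and Il1b by 1.01 (SE 0.26, adjusted p = 0.00405), both just past the fold limit. VPA4h replicate 1 had the highest level of both, and without it the differences were -0.63 (adjusted p = 0.148) and -0.68 (adjusted p = 0.0258). The call of Il1a was also lost without VPA4h replicate 2 (adjusted p = 0.0531), VPA64h replicate 1 (adjusted p = 0.0514) or VPA64h replicate 3 (adjusted p = 0.0633), and that of Il1b without VPA64h replicate 3, at -0.97. Over all alternatives the call was lost in 9 of 24 for Il1a and in 5 of 24 for Il1b. With all replicate 1 arrays left out the values were -0.64 (adjusted p = 0.0338) and -0.73 (adjusted p = 0.00763). Il1rn differed by -0.24 (SE 0.19, adjusted p = 0.291).

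The VPA effects at 64 h and at 4 h were compared directly as an interaction. Of the 6 genes Il33 was called, with an effect at 64 h that was higher by 1.05 (SE 0.19, adjusted p = 0.000992), where 0.893% of all tested probe sets were called in that direction and 1.7% in the other. The difference was negative in 3 of 3 pairs at 4 h, between -0.16 and -0.04, and positive in 3 of 3 at 64 h, between 0.81 and 1.07. For the other 5 genes it lay between -0.29 and 0.26 with adjusted p of 0.161 to 0.889. The call for Il33 was close to the fold limit, and without Ctrl4h replicate 1 the value was 0.92 (adjusted p = 0.00259). It was also under 2-fold without VPA4h replicate 3 (0.95), Ctrl64h replicate 2 (0.99) or VPA64h replicate 1 (0.95).

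The order of the 5 groups differed between the genes. Il33 was highest in Ctrl4h, then VPA4h, Ctrl16h, VPA64h and Ctrl64h, and of these neighbours Ctrl4h overlapped VPA4h and Ctrl16h overlapped VPA64h. Il1rap ran from Ctrl64h through VPA64h, Ctrl16h and VPA4h to Ctrl4h, and of these neighbours the 2 groups of 4 h overlapped. The means of Il1a and Il1b were higher at 4 h with or without VPA, and the 3 later groups overlapped one another in sequence. For Il1rn every group overlapped its neighbour. Il18 was highest in VPA64h and lowest in Ctrl64h, and only the last of its neighbours, VPA4h and Ctrl64h, did not overlap.

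Among 19937 other genes the closest to Il1a over the 14 arrays was Il1b (Pearson r = 0.944), followed by Car8, a carbonic anhydrase relative, at 0.920 and Clec4e, a lectin receptor of macrophages, at 0.913. The closest to Il1b were Car8 (0.946), Il1a (0.944) and Klf2, a transcription factor (0.937). Il33 was most like Rgs5, a regulator of G-protein signalling known from pericytes and one of the HSC markers, at 0.990, then Errfi1, a feedback inhibitor of the EGF receptor, at 0.988 and Acsl4, a fatty acid CoA ligase, at 0.987. For Il1rap they were Tmem98 (0.996), S100a6, a calcium-binding protein (0.995), and Pter (0.995). The 14 arrays form 5 groups, so for Il33 and Il1rap these values of r mostly reflect differences between groups. Il1a and Il1b also varied widely within the groups of 4 h. The SD in Ctrl4h and VPA4h was 0.83 and 0.77 for Il1a and 0.51 and 0.64 for Il1b. All values of r were taken as the highest of many.

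The remaining genes of the pathway were counted from a list of 74, of which 71 were measured. Between Ctrl4h and Ctrl64h 3 rose and 16 fell with a median change of -0.32, beside 6.68% and 3.71% of all tested probe sets and their median of -0.09. Between Ctrl4h and Ctrl16h 1 rose and 9 fell with a median of -0.21, beside 0.705% and 1.21% and a median of -0.01. None of the 5 other ligands (Il1f5, Il1f6, Il1f8, Il1f9 and Il1f10 in the table) and none of the 8 other receptors, decoys and binding proteins was called in any comparison. Of 13 genes of the inflammasome, the complex that activates caspase-1, Nek7, which licenses NLRP3, was the only one called between Ctrl4h and Ctrl64h and rose by 1.42 (SE 0.08, adjusted p = 5.12e-10). Of 17 adaptors and kinases, Mapk14, the stress kinase p38α, rose by 1.17 (SE 0.07, adjusted p = 1.22e-09).

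All 16 decreases were among the 28 NF-κB factors and IL-1 response genes, of which 16 fell and 1 rose between Ctrl4h and Ctrl64h, with a median of -1.09, where 3.71% of all tested probe sets fell and 6.68% rose. Sele, the endothelial adhesion molecule E-selectin, was at 10.28, 9.35 and 8.70 in Ctrl4h and at 6.30, 5.96 and 6.47 in Ctrl64h, and it fell by 3.20 (SE 0.31, adjusted p = 3.47e-07). Vcam1, another adhesion molecule induced by inflammatory cytokines, was at 12.38, 12.40 and 12.15 and then at 9.61, 9.65 and 9.70, and it fell by 2.65 (SE 0.14, adjusted p = 3.07e-10). The one that rose was Timp1, an inhibitor of metalloproteinases, by 1.18 (SE 0.15, adjusted p = 8.55e-06). In Ctrl4h Sele was highest in replicate 1, as were Il1a, Il1b, Il33, Il1rn and the means of the macrophage and sinusoidal endothelial markers. Why these were highest together was not tested. Of these 28 genes 9 fell between Ctrl4h and Ctrl16h, with a median of -0.79, where 1.21% of all tested probe sets fell.

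**Figure D4:**
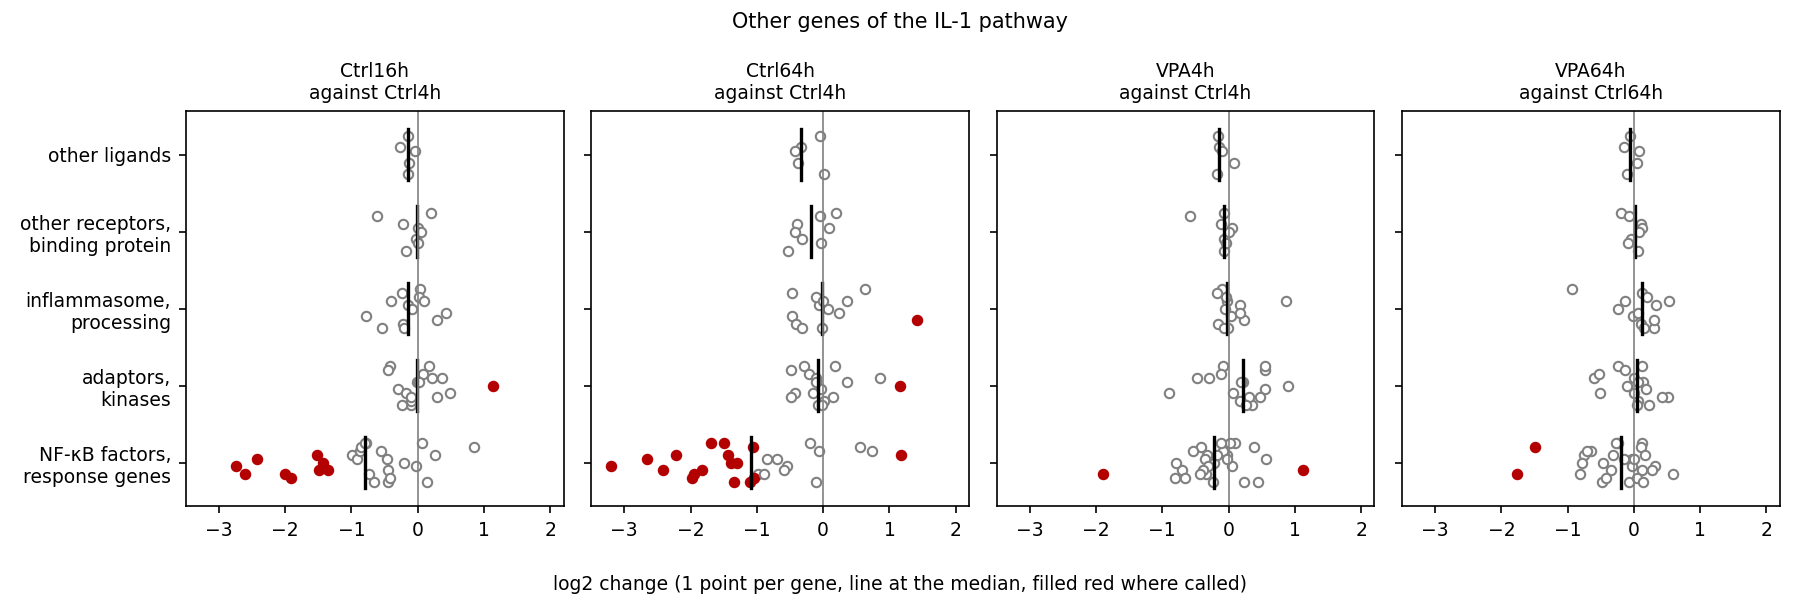
The log2 change (horizontal axis) of 71 other genes of the IL-1 pathway in 5 groups and 4 comparisons, with 1 point per gene, filled red where it rose or fell, and a vertical line at the median of each group. The red points of Ctrl64h against Ctrl4h are 16 decreases and 1 increase among the NF-κB factors and response genes, with Nek7 and Mapk14 in the groups above.

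With VPA 1 of the 71 genes rose and 1 fell after 4 h, where 0.867% and 0.555% of all tested probe sets did, and after 64 h none rose and 2 fell, where 1% and 1.14% did. After 4 h Il6, a cytokine induced by IL-1, fell by 1.89 (SE 0.31, adjusted p = 0.000249) and Nfkbie, an inhibitor of NF-κB, rose by 1.13 (SE 0.14, adjusted p = 1.6e-05). Il6 was at 7.93, 6.67 and 7.61 in Ctrl4h and at 5.33, 5.21 and 6.002 in VPA4h, with no overlap. After 64 h Il6 fell by 1.76 (SE 0.31, adjusted p = 0.000559), from 6.88, 6.12 and 6.24 to 4.92, 4.95 and 4.09. Lcn2, an iron-sequestering protein of the acute phase, fell by 1.499 (SE 0.37, adjusted p = 0.00687). Its cultures were widely spread, from 6.88 to 8.62 (SD 0.89) in Ctrl64h and from 5.64 to 6.42 (SD 0.43) in VPA64h. The median change over the 71 genes was -0.07 after 4 h and -0.01 after 64 h, beside -0.03 and 0.00 for all tested probe sets. Il6 fell with VPA at both times, where Il1a and Il1b were not called.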

How the data were processed

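RNA of 14 cultures was hybridised to Affymetrix Mouse Gene 1.0 ST arrays, 1 array per culture. The authors deposited 1 table of log2 values made by RMA, which corrects background, equalises the distributions of the arrays and summarises probes. The methods name GeneSpring GX for this step and the submitters' processing notes Affymetrix Expression Console. Array medians over the tested probe sets lay within 6.34 and 6.41. Of 35557 probe sets 21789 named exactly 1 gene by the platform annotation, and the 23410 with at least 1 symbol were tested. All 5 groups were fitted together with limma 3.58.1 in R 4.3.3 (lmFit and eBayes, 9 residual and 6.52 prior degrees of freedom, two-sided, Benjamini-Hochberg over the tested probe sets) and compared in 7 contrasts. Calls needed an adjusted p under 0.05 and a change of at least 2-fold. The fit was tested on simulated data.

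Of the other pathway genes the 2 called ones of largest change per group of genes were named for Ctrl64h against Ctrl4h and for both VPA comparisons, and for each gene called the 3 genes of highest Pearson r. Timp1 was named after its value was seen. The genes followed and the lists were chosen with earlier results of these data known. Replicate numbers were taken as pairs for the VPA comparisons, since deviations from the group means correlated within them. The values were 0.139 to 0.279 in all 3 pairs at 4 h and 0.158 to 0.171 at 64 h. Arrays of the same number in Ctrl4h and VPA64h also correlated, at 0.107 to 0.180. Over all 26 pairs of arrays of the same number r ran from -0.238 to 0.279, and 8 were negative. Arrays of unlike numbers were not correlated, so these values have no reference and the pairing is an assumption. The main fit held no replicate block, so its SE and p values do not use the pairing. Alternatives were other normalizations, filters, samples, probe sets and tests, the block, and each array left out. Arrays give no counts, and their number limits the precision.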

Additional observations from a re-analysis of the deposited data

Results flagged for a closer look

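The effect of VPA on Il33 differed between the time points. It was -0.11 (SE 0.13) after 4 h and 0.94 (SE 0.13) after 64 h, and the test of the difference itself gave 1.05 (SE 0.19, limma adjusted p = 0.000992). The level was lower with VPA in 3 of 3 pairs at 4 h and higher in 3 of 3 pairs at 64 h. Over 25 alternatives the difference ran from 0.92 to 1.26, and in 6 of them it was under 2-fold and no longer called. The adjusted p lay between 0.00024 and 0.00888, leaving out the analysis of variance, whose p is over all groups.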

How the results depend on the processing

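Of 1029 changes of single genes over the alternatives, 998 were called or not called as before, 21 lost a call and 10 gained one. Of the changes, 46 turned their sign, none of them called, and 56 crossed the limit of the adjusted p (analysis of variance left out), 15 of them Il1a for Ctrl64h against Ctrl4h. The lost calls belonged to values near 2-fold, namely Il1a and Il1b for VPA64h against VPA4h, the interaction of Il33 and the step of Il33 from 16 h to 64 h. Il1a lost its call, beside the arrays named above, with quantile normalization repeated, with all probe sets tested, with trend and robust moderation and by the analysis of variance. Of the counts over the 6 genes, that for Ctrl16h against Ctrl4h was 1, and 2 centred on housekeeping genes, 3 on a Gapdh probe set and 2 with the replicate block, where the numbers were no established pairs. For Ctrl64h against Ctrl16h it was 1 on housekeeping genes. For Ctrl64h against Ctrl4h it was 5 on Gapdh and 2 to 4 with 1 array left out. For VPA64h against VPA4h it was 2 with quantile normalization repeated, 2 with dim probe sets left out (3 of the 6 genes tested), 2 by the analysis of variance, 2 without all replicate 1 arrays, and 2 to 4 with 1 array left out. For the interaction it was 0 with quantile normalization repeated, 0 without all replicate 1 arrays, and 0 to 1 with 1 array left out. Of the pathway counts, centring on Gapdh gave 19 for Ctrl16h against Ctrl4h, 5 for VPA4h against Ctrl4h and 2 for the interaction. The interaction count was also 2 on housekeeping genes, 2 with the block, 2 without all replicate 1 arrays and 1 to 3 with 1 array left out, and the analysis of variance gave 1 for VPA64h against Ctrl64h. The replicate block changed no other call among the 6 genes. Centring on Gapdh moved all changes of Ctrl64h against Ctrl4h by -0.56, with 525 probe sets risen and 3927 fallen in place of 1564 and 868, and centring on housekeeping genes by -0.11, with 1275 and 1085. Apart from these constructions, the cause of a changed count was not tested. Without all replicate 1 arrays Ctrl16h holds 1 array, assumed to vary like the other groups.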
